A study of Mus musculus with 17 samples.

Results

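The cytosolic heat shock chaperones are proteins that bind unfolded chains and help them fold, and their genes are the textbook targets of the heat shock response. The set described here was a list by name, chosen with earlier results of these data known. It holds 10 mouse genes: Hspa1a, Hspa1b, Hspa8, Dnajb1, Dnaja1, Hsph1, Hsp90aa1, Hspb1, Hspd1 and Hsf1. Every probe set annotated to exactly 1 of them was taken, which gave 31 of 35048 probe sets (the tables name 12636 genes), 20 in a table of 8 arrays and 11 in a table of 9 arrays. A probe set is the group of short oligonucleotides that reports on a transcript. Where a gene has several in a table they are called A, B and so on, from the brightest to the dimmest, and a level is never set against that of another probe set. Both tables held probe sets for 9 of the genes. For Hsf1, the heat shock transcription factor, no probe set carried its name alone in the annotation used, and it was not analysed here. Hspd1 stands somewhat apart from the label, since its product, the chaperonin HSP60, is known to work mainly in mitochondria.

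RNA came from NIH 3T3 cells, an established mouse embryonic fibroblast line, made quiescent (in the MEK experiment the labels say so of the untreated cells), and was measured on 17 arrays with 1 array per condition. In the Src experiment (8-array table) vehicle, SU6656 at 2 µM, UO126 at 10 µM or LY294002 at 7.5 µM was given, each without PDGF and with PDGF at 25 ng/ml for 1 h. The 9-array table holds the MEK experiment, in which cells were untreated or received UO126 at 10 µM or PD98059 at 7.5 µM, each without and with PDGF at 25 ng/ml. For how long PDGF acted there is not given in the sources used here. It also holds 3 arrays that repeated part of the Src experiment with vehicle, with PDGF for 1 h, and with PDGF plus SU6656 at 2 µM. SU6656 blocks kinases of the Src family, LY294002 blocks PI3K, and both UO126 and PD98059 block MEK, which lies upstream of ERK. The control of the MEK experiment was untreated and the controls of the other experiments received vehicle, so inhibitors in the former have no vehicle control. The labels do not tell whether the cultures behind the arrays were separate, so differences between arrays may be technical. The p-values rest on how arrays depart from the fit, such as differences in response between pairs, and not on a spread of replicates. For the 8 arrays of the first table the median signal per array was 189.5 to 198.4 units without PDGF and 174.7 to 184.6 with it. Small PDGF effects there moved with the scaling, as given below. For the second table the medians were between 133.7 and 156.1. Precision throughout is limited by how few arrays there are. Of 13 fibroblast markers 12 had a probe set in each table, all above the filter on dim probe sets, with a summed signal of 235878.1 to 277574.8 and 79987.1 to 146452.6. The sums were 838.7 to 1092.7 and 986.6 to 1908.8 for 6 macrophage and leukocyte markers, 415.9 to 776.2 and 456.6 to 662.8 for 5 epithelial, 283.3 to 398.7 and 70.6 to 213.6 for 4 endothelial, and 303.7 to 567.2 and 298.5 to 523.0 for 5 adipocyte and muscle markers. With PDGF the epithelial marker Cldn3 rose in the first table (1.42) and the fibroblast marker Pdgfra fell in the second (−0.65), and the part of other cells in the results was not tested.

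HSP70 proteins are ATP-driven chaperones. J-domain proteins such as those encoded by Dnajb1 and Dnaja1 deliver unfolded clients to HSP70 and stimulate its ATPase, and Hsph1, an HSP110, releases the nucleotide again. HSP90 takes over clients such as kinases and receptors, small heat shock proteins such as that of Hspb1 hold unfolded chains without ATP, and in heat shock HSF1 binds repeats of the unit GAA in alternating orientation, the heat shock element, before many of these genes. Hspa8 is the constitutive HSP70 of most cells, while Hspa1a and Hspa1b, near-identical neighbours, encode the strongly heat-inducible form.

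Promoter sequence from RefSeq was at hand for 7 of the genes (12 start sites, build GRCm38.p6). Those printed are of the genes that rose most with PDGF, Dnajb1 and Hspa1b, of Hspa1a, the copy of the latter, and of Hspd1, which holds a long heat shock element. Each is the 250 bases before an annotated start site, 5′ to 3′ on the gene's strand. Dnajb1 and Hspd1 each have another annotated start site, which is not printed. Capitals mark GAANNTTC or TTCNNGAA, a pair of inverted heat shock units, and CCAAT on either strand (ATTGG on the other).
Dnajb1, chr8:83607925-83608174, plus strand: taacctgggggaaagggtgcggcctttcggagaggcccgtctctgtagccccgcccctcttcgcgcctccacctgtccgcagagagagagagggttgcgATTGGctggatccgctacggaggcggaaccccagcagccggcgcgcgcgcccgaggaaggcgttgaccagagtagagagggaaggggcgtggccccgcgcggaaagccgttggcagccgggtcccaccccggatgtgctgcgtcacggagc
Hspa1b, chr17:34959239-34959488, minus strand: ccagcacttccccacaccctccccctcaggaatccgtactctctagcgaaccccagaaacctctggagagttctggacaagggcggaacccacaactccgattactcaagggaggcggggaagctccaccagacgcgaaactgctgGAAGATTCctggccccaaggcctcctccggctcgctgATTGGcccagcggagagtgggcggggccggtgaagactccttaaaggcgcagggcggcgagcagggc
Hspa1a, chr17:34972157-34972406, minus strand: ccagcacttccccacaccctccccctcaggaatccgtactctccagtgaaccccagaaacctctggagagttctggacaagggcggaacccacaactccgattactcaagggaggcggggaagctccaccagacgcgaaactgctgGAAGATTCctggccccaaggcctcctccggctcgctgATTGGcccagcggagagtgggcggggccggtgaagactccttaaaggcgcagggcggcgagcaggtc
Hspd1, chr1:55087933-55088182, minus strand: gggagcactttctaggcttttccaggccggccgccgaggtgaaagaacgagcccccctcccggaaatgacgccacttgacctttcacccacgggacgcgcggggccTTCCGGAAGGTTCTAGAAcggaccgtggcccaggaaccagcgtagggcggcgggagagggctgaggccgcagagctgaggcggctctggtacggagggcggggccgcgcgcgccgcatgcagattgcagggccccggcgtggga
The search covered 300 bases, the 250 before and 50 after each start site, on both strands. The paired unit was found for 6 of the 7 genes. By window it was in 7 of the 12 of these genes and in 15.1% of all 32851 windows of that length. It lay 104 bases before the start sites of Hspa1a and Hspa1b as GAAGATTC, whose windows were the same at 296 of 300 positions. It was found in neither of the Dnajb1 windows. A longer form with 3 alternating units, which contains the paired unit, was found for Hspd1 (TTCCGGAAGGTTC, 144 bases before the start) and Hsph1 (TTCTGGAAAGTTC, after the start). The Hspd1 window that is not printed held neither form. The longer form was in 3 of the 12 windows and in 0.603% of all windows. CCAAT was found for 6 of the 7 genes, in 8 of the 12 windows (37.4% of all windows). TATAAA (13.6%), TGACGTCA (1.79%) and TGANTCA (7.81%) were found for 0. These matches describe letters in these windows only, and some windows of the same gene overlap.

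PDGF over no PDGF was compared on 4 pairs of arrays in each table, each pair sharing experiment and inhibitor. Of the 18 member probe sets tested in the 8-array table, 6 rose and 0 fell, from Dnajb1, Hspa1b and Dnaja1. Of the 9 tested in the 9-array table, 2 rose and 0 fell, from Dnajb1 and Hspa1b. Over all probe sets tested, limma called 3.31% in the former (2.5% up and 0.814% down) and 1.69% in the latter (1.43% up and 0.265% down, adjusted p under 0.05, Benjamini-Hochberg over all probe sets). The median effect of the members was 0.15 and 0.07 on the log2 scale, against −0.03 over all probe sets in both tables. Since the members were chosen with earlier results of these data known, the shares and medians describe the set and do not test it. Dnajb1 and Hspa1b were called in each table. All 4 arrays with PDGF lay above all 4 without for the same 6 member probe sets and below for 0, against 3.43% and 3.73% of all probe sets of the 8-array table. Higher in 4 of 4 pairs were 10 of the 18 (10.5% of all) and 3 of the 9 (9.11%, Dnajb1, Hspa1b and, after normalisation only, Hsp90aa1), and lower in 4 of 4 were 1 of the 18 (14.3%, Hspa8) and 1 of the 9 (12.5%, Hspd1). The 8-array count depended on the variance trend of the test, without which 1 of the 6 calls was left (Dnajb1, probe set B), and the 2 calls of the 9-array table were lost without the pair as a block, without the trend or without the filter on dim probe sets.

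**Figure D1:**
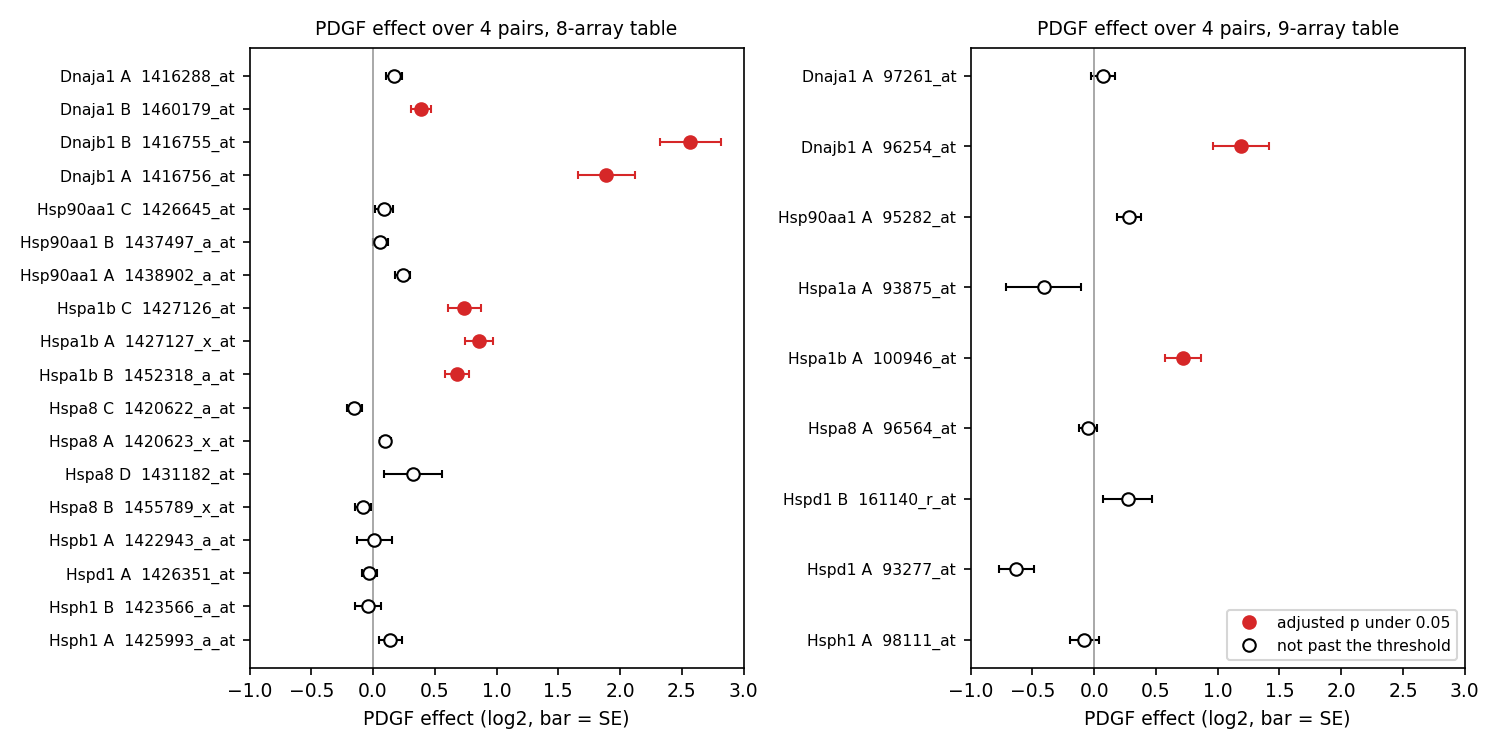
Fitted PDGF effect (log2, horizontal axis) for each member probe set above the filter, over 4 pairs of arrays in the 8-array (left) and 9-array (right) table; bars are standard errors and filled red points passed an adjusted p of 0.05. Dnajb1 and Hspa1b lie to the right in both panels, and probe set B of Dnaja1 passed in the left one.

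Dnajb1, which encodes the HSP40 cochaperone that partners inducible HSP70, had the largest PDGF effect of the member probe sets tested in each table. At probe set B its deposited signal without PDGF was 668.4 with vehicle, 625.4 with SU6656, 513.4 with UO126 and 712.9 with LY294002. With PDGF it was 6138.8, 4528.7, 1364.8 and 5874.9 in the same order. All 4 arrays with PDGF lay above all 4 without, and the array with PDGF and UO126 lay far below the other arrays with PDGF. At probe set A the signal was 1237.5, 1306.1, 1105.5 and 1572.4 without PDGF and 7610.2, 5352.0, 1982.7 and 7577.7 with it, the same pattern. The fitted PDGF effects of B and A were 2.57 (SE 0.246, limma adjusted p = 0.000324) and 1.89 (SE 0.229, adjusted p = 0.00147), higher in 4 of 4 pairs, a 5.94-fold and 3.71-fold rise.

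The 9-array table showed Dnajb1 at 952.1 with vehicle and 4463.0 with PDGF in the repeat. In the MEK experiment it was 751.5 untreated and 1674.1 with PDGF, 543.2 and 774.8 with UO126, and 670.7 and 1316.2 with PD98059. It was higher with PDGF in 4 of 4 pairs, with the largest ratio in the repeat and the smallest with UO126. The effect was 1.19 (SE 0.228, limma adjusted p = 0.0291). That call was lost without the untreated, the PDGF or the PD98059 array of the MEK experiment (log2 1.22 to 1.27). Over basal alone, the log2 response of Dnajb1 at its brightest probe set was 2.60 in the Src experiment, 1.11 in the MEK experiment and 2.23 in the repeat, a mean of 1.98 ± 0.77 (SD, n = 3 experiments) or 3.95-fold. Probe set B gave 3.15 in the Src experiment. The tables are of different array designs with different probe sets, and the time of PDGF in the MEK experiment is not given. This SD and those below may therefore hold more than the spread of experiments.

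**Figure D2:**
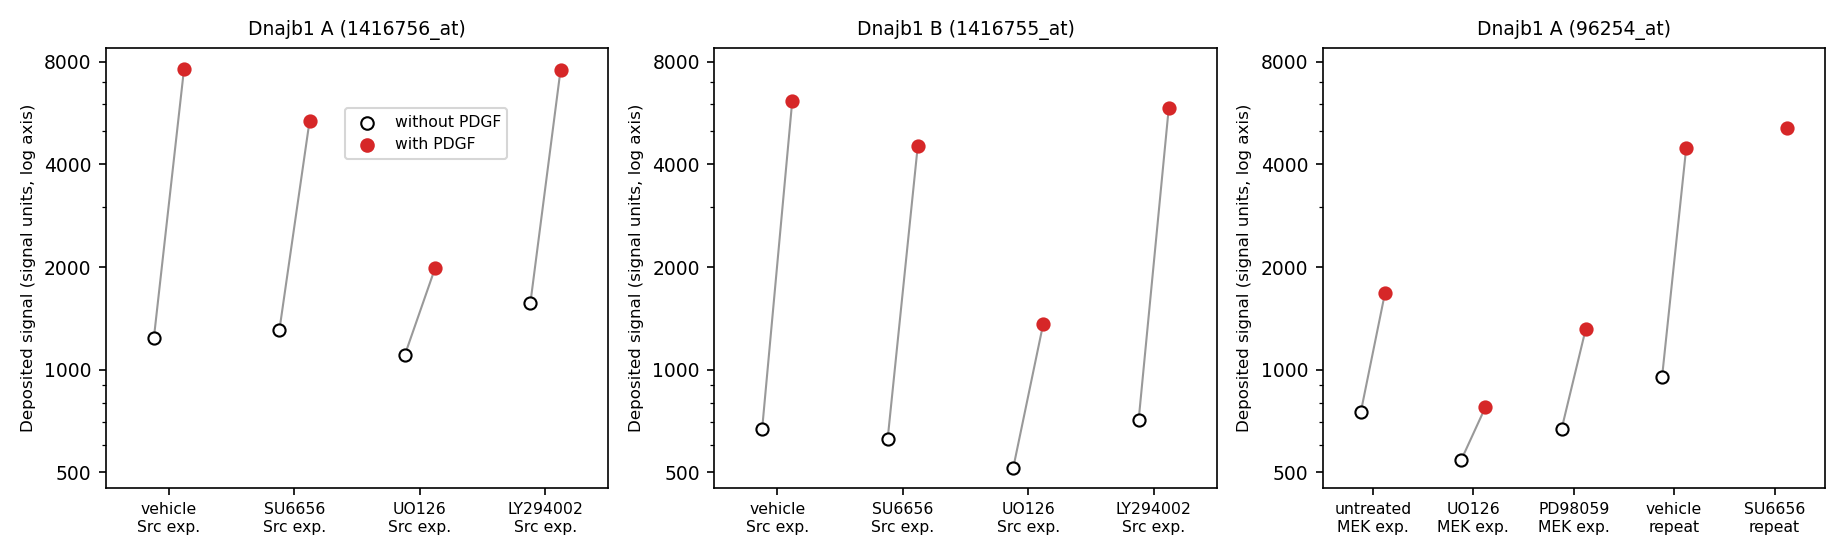
Deposited signal of Dnajb1 (vertical log axis, signal units) at 2 probe sets in the Src experiment and 1 in the 9-array table; open points are arrays without PDGF, red points arrays with PDGF, and lines join arrays of 1 pair. With UO126 the red point reached 1364.8 at probe set B, against 4528.7 to 6138.8 in the other pairs, and no array held SU6656 without PDGF in the repeat.

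How the Dnajb1 response differed with each inhibitor was read from ratios within an experiment, each of 1 array over 1 array and without a test. Ratios and effects are of normalised values with a constant added, so they differ from those of the deposited signals. In the Src experiment PDGF gave an 8.91-fold rise at probe set B with vehicle, 8.01-fold with LY294002, 6.95-fold with SU6656 and 2.52-fold with UO126. The log2 response minus that with vehicle was −1.82 for UO126 at both probe sets, −0.36 and −0.62 for SU6656 (B, A), and −0.15 and −0.39 for LY294002. Under PDGF, the array with UO126 was at 0.223 and 0.259 of the array with vehicle. In the MEK experiment the corresponding value was 0.468 for UO126 and 0.794 for PD98059, and in the repeat SU6656 gave 1.16. UO126 thus had the lowest Dnajb1 value of the inhibitors in each experiment that used it, and SU6656 gave values below 1 in the Src experiment and above 1 in its repeat. In the MEK experiment Dnajb1 was also lower without PDGF, with log2 ratios over untreated of −0.44 (UO126) and −0.19 (PD98059). The log2 response there minus that of the untreated pair was −0.65 and −0.14. Among 58 probe sets at least 4-fold up with PDGF over vehicle in the Src experiment, probe set B had the lowest log2 ratio of PDGF with UO126 over PDGF (−2.16, against a median of −0.45), and probe set A was at −1.95. The same PDGF array chose those probe sets and is the divisor, which favours low values, and the limit of 4-fold was chosen after the values were seen.

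With all arrays, the tests that pool arrays called none of the inhibitor effects on Dnajb1. In the Src experiment the fit had terms for inhibitor and PDGF but none for their interaction. It therefore did not test the differences in response given above, which went into its residual and enlarged the SE. The missing call there does not bear on those differences. At B and A, UO126 over vehicle across both PDGF states was −1.25 (SE 0.348, limma adjusted p = 0.351) and −1.04 (SE 0.324, adjusted p = 0.398). Without PDGF the log2 ratios of UO126 over vehicle were −0.34 and −0.13. These values moved with single arrays. Without the array with PDGF and UO126 they were −0.42 and −0.30, without that with PDGF and vehicle −0.86 and −0.57, and without that with vehicle alone −1.64 and −1.51, none of them called. Without the array with UO126 alone they were −2.08 and −1.78 and called, but UO126 then rests on 1 array, assumed to vary like the others. With UO126 and PD98059 as 1 factor in the 9-array table, MEK inhibition under PDGF was −0.99 (SE 0.325, limma adjusted p = 0.502), and its interaction with PDGF was −0.96 (SE 0.411, adjusted p = 0.999). Leaving out 1 array gave −1.83 (without PDGF alone of the MEK experiment) to −0.61 (without PDGF and UO126) for the former, and −1.52 (without PDGF alone of the MEK experiment) to −0.39 (without either array of the repeat pair) for the latter, none called. That fit shares 1 PDGF term between the MEK experiment and the repeat, whose responses differed. The direct log2 ratios under PDGF of −1.10 and −0.33 lie on either side of its value of −0.99. Its interaction of −0.96 is larger in size than both direct response differences, −0.65 (UO126) and −0.14 (PD98059).

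Hspa1b, an inducible HSP70 gene, rose less than Dnajb1 and did so with each inhibitor present. At probe set A the signal without PDGF was 769.8 with vehicle, 618.5 with SU6656, 604.6 with UO126 and 475.3 with LY294002. With PDGF it was 1130.6, 1240.9, 1473.2 and 800.2. The arrays with and without PDGF did not overlap, and both LY294002 arrays were the lowest of their kind. At probe set B the signals were 785.5, 619.5, 634.9 and 441.9 without and 1062.7, 1049.2, 1107.9 and 808.2 with PDGF. At probe set C they were 488.0, 415.5, 520.0 and 296.6 without and 743.2, 648.7, 734.5 and 737.5 with PDGF. All 3 probe sets separated the arrays by PDGF, with effects of 0.86 (SE 0.115, limma adjusted p = 0.00269), 0.68 (SE 0.0968, adjusted p = 0.0039) and 0.74 (SE 0.132, adjusted p = 0.0149). The last call was lost without the vehicle, PDGF, SU6656, or PDGF with LY294002 array (0.57 to 0.79), and that at probe set B without the pair as a block (0.68).

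In the 9-array table Hspa1b was at 978.6 untreated and 1566.3 with PDGF, 1310.0 and 1588.5 with UO126, 719.8 and 1352.5 with PD98059, and 746.6 and 1573.0 in the repeat. The arrays with PDGF lay in a narrow range above all arrays without it, while the latter varied, and SU6656 with PDGF in the repeat was at 1389.3. The effect was 0.72 (SE 0.145, limma adjusted p = 0.0377), higher in 4 of 4 pairs, and was lost without either array of the untreated, PD98059 or repeat pair (0.60 to 0.75). Over basal the log2 response was 0.54, 0.65 and 1.11 in the Src experiment, the MEK experiment and the repeat, a mean of 0.77 ± 0.30 (SD, n = 3) or 1.7-fold. LY294002 over vehicle, across both PDGF states, was −0.59 (SE 0.137, limma adjusted p = 0.106) at probe set B, −0.57 (SE 0.162, adjusted p = 0.167) at probe set A and −0.33 (SE 0.187, adjusted p = 0.517) at probe set C. None of these passed. UO126 over vehicle was −0.12 to 0.05 at the same probe sets.

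Probe sets named for Hspa1a were dim. That of the 8-array table was at 8.1 to 48.6 and fell below the filter. That of the 9-array table was at 14.5 to 95.9, with a PDGF effect of −0.41 (SE 0.304, limma adjusted p = 0.609), which missed the threshold. The transcripts of these near-identical neighbours, Hspa1a and Hspa1b, were not compared here. How each probe set divides them was not tested, so values under either name are uncertain as to the gene.

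**Figure D3:**
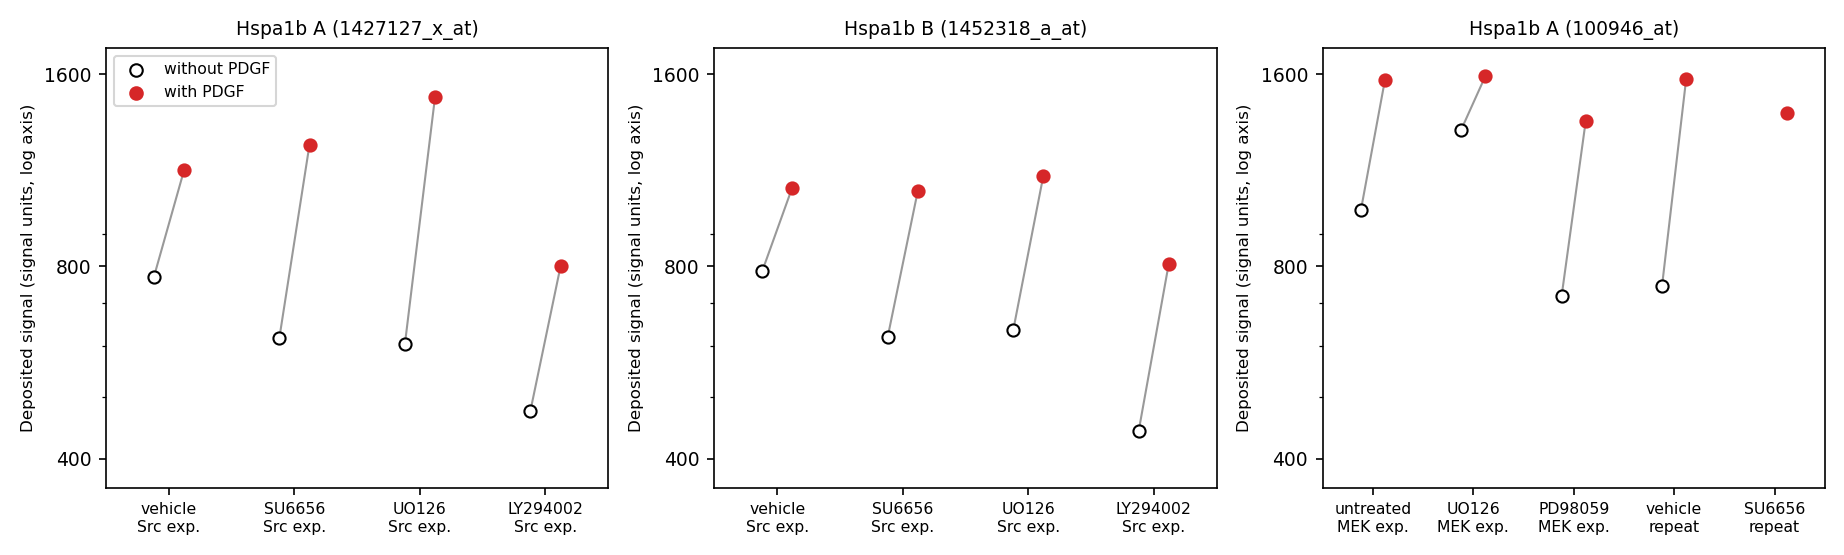
Deposited signal of Hspa1b (vertical log axis, signal units) at 2 probe sets in the Src experiment and 1 in the 9-array table; open points are arrays without PDGF, red points arrays with PDGF, and lines join arrays of 1 pair. In the right panel the 4 paired arrays with PDGF lie between 1352.5 and 1588.5, and those without between 719.8 and 1310.0.

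Dnaja1, another J-domain cochaperone of HSP70, had probe sets that differed. At probe set B its signal was 1349.0, 1662.2, 1377.6 and 1251.1 without PDGF (vehicle, SU6656, UO126, LY294002) and 1777.8, 2064.6, 1757.8 and 1961.1 with it. The arrays did not overlap, and the effect was 0.39 (SE 0.0809, limma adjusted p = 0.0321), a 1.31-fold rise. That call was lost when any 1 of the 8 arrays was left out (0.31 to 0.43), and without the pair as a block, the filter or the variance trend (0.39). At probe set A the effect was 0.17 (SE 0.0657, limma adjusted p = 0.241), called with a common median (0.31), and in the 9-array table it was 0.07 (SE 0.0964, adjusted p = 0.833). Its log2 response over basal was 0.17 ± 0.06 (SD, n = 3), higher in all 3 experiments.

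Hsp90aa1, the inducible cytosolic HSP90, had small positive effects. They were 0.24 (SE 0.0606, limma adjusted p = 0.078) at probe set A, 0.09 (SE 0.0717, adjusted p = 0.582) at probe set C and 0.06 (SE 0.0622, adjusted p = 0.685) at probe set B in the 8-array table, and 0.28 (SE 0.095, adjusted p = 0.254) at probe set A in the 9-array table. None passed, although with the deposited scaling or a common median probe set A of the 8-array table was called (0.27 and 0.38). In the 9-array table the signal of probe set A was 9614.7 untreated and 9118.4 with PDGF, 9600.2 and 9686.8 with UO126, 5943.5 and 9238.5 with PD98059, and 5634.3 and 7312.3 in the repeat. In the untreated pair the deposited signal was thus lower with PDGF, while the log2 ratio of the normalised values was 0.12, so that the count of 4 of 4 pairs higher for this probe set depends on the normalisation. The array with PD98059 alone stood below the other arrays of the MEK experiment. Its other probe set there, probe set B, was at 5.2 to 69.4 and below the filter.

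Hspa8 did not pass at any of its probe sets. At probe set A the signal was 17984.5 to 21805.8 without PDGF and 20147.3 to 22106.7 with it, with an effect of 0.10 (SE 0.0417, limma adjusted p = 0.266). At probe set B and probe set C the effects were −0.08 (SE 0.0622) and −0.15 (SE 0.0614), the latter turning to 0.00 with a common median. These values lie on both sides of 0, and that of the dim probe set D (74.2 to 156.3 signal units) was 0.32 (SE 0.235). Its effect in the 9-array table was −0.05 (SE 0.0753, limma adjusted p = 0.846). Its signal there was 6572.5 to 7059.7 in the MEK experiment and 11991.4 to 12816.6 in the repeat. The experiments therefore stood further apart than any conditions within them, and culture, treatment of the control and array run cannot be told apart there.

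Hspd1 gave different values in the experiments. In the Src experiment its signal was at 3691.6, 3787.7, 3505.2 and 3803.7 without PDGF (vehicle, SU6656, UO126, LY294002) and 4201.0, 3598.8, 3477.9 and 3777.2 with it, an effect of −0.03 (SE 0.0627, limma adjusted p = 0.878). In the MEK experiment probe set A was at 6384.0 untreated and 4452.8 with PDGF, 7911.0 and 4140.4 with UO126, and 7261.7 and 3914.1 with PD98059. In the repeat it was 4094.2 with vehicle and 4081.1 with PDGF. All 3 arrays without PDGF of the MEK experiment thus lay above all others of that table. The effect over 4 pairs was −0.63 (SE 0.143, adjusted p = 0.0613), lower in 4 of 4 pairs and not past the threshold, and leaving out either array of the repeat pair made it −0.81 and called. MEK inhibition without PDGF was 0.42 (SE 0.153, adjusted p = 0.582, 0.31 to 0.74 without 1 array), and its interaction with PDGF −0.70 (SE 0.193, adjusted p = 0.768, −0.92 to −0.48 without 1 array). With all arrays both values were larger in size than the direct ones. Those were log2 ratios of 0.33 (UO126) and 0.30 (PD98059) without PDGF, and response differences of −0.48 and −0.50. The fit shares 1 PDGF term between the MEK experiment and the repeat, whose log2 responses were −0.49 and −0.07. The other probe set of the gene, probe set B, had an effect of 0.27 (SE 0.197) at signals of 52.5 to 193.5.

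**Figure D4:**
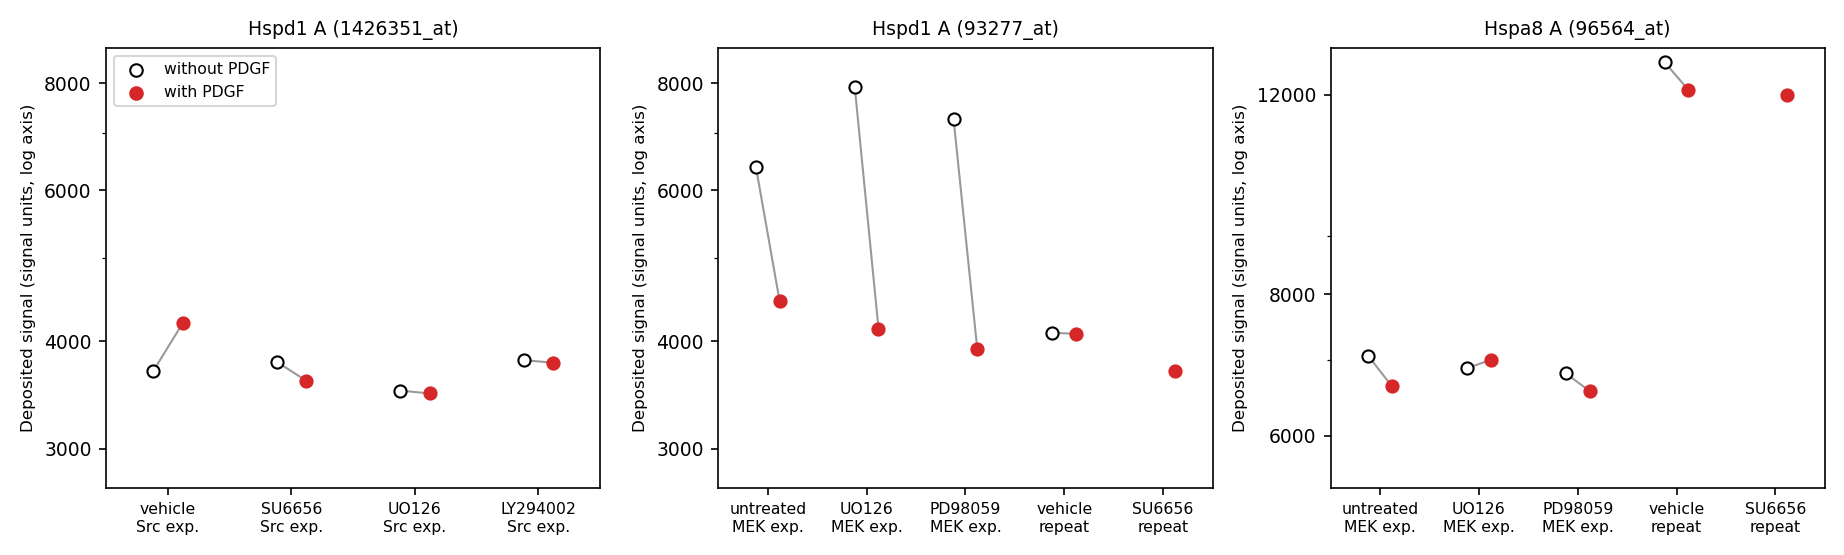
Deposited signal (vertical log axis, signal units) of Hspd1 in the Src experiment (left) and the 9-array table (middle) and of Hspa8 in the 9-array table (right); open points are arrays without PDGF, red points arrays with PDGF, and lines join arrays of 1 pair. Hspd1 is lower with PDGF in the 3 pairs of the MEK experiment, and Hspa8 differs between experiments (6572.5 to 7059.7 against 11991.4 to 12816.6).

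Hsph1, the HSP110 exchange factor of HSP70, did not pass with PDGF. Its effects were −0.04 (SE 0.105, limma adjusted p = 0.903) at probe set B, 0.14 (SE 0.0923, adjusted p = 0.503) at probe set A and, in the 9-array table, −0.08 (SE 0.115, adjusted p = 0.833). With UO126 its signals were the lowest of the Src experiment: 395.7 without and 323.1 with PDGF at probe set B, against 411.9 to 562.2 on the other 6 arrays. At probe set A they were 554.2 and 575.0, against 608.4 to 797.2. The UO126 effects were −0.55 (SE 0.149, adjusted p = 0.332) and −0.44 (SE 0.13, adjusted p = 0.383), not past the threshold. In the MEK experiment its signal was 2335.1 untreated, 2339.3 with UO126, 2515.2 with PDGF and 1802.9 with PDGF and UO126, so with UO126 the signal was below its control with PDGF and not without it. With PD98059 the signal was 2071.7 without PDGF and 2278.1 with it, below its control in both states. Hspb1 was at 252.0 to 409.8 at probe set A with an effect of 0.01 (SE 0.142, adjusted p = 0.978), whose sign turned with the deposited scaling. Its probe set B (4.9 to 9.2) and that of the 9-array table (10.3 to 59.4) were below the filter.

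For no inhibitor did a member pass the threshold. Among the 8 arrays limma called 0 of the 18 member probe sets with UO126, 0 with SU6656 and 0 with LY294002, against 0.0442% (0.0189% up and 0.0253% down), 0.107% (all down) and 0.511% (0.202% up and 0.309% down) of all probe sets. At an unadjusted p under 0.05 the numbers of members were 7, 1 and 2, against 9.05%, 8.02% and 13.3% of all probe sets. The 7 with UO126 had negative effects: both of Dnajb1, both of Hsph1, probe set C (−0.37, SE 0.0868, adjusted p = 0.306) and probe set A (−0.17, SE 0.059, adjusted p = 0.435) of Hspa8, and probe set A of Dnaja1 (−0.30, SE 0.093, adjusted p = 0.396). That of Hspa8 at probe set A was −0.06 with the deposited scaling and −0.03 with a common median, and its deposited signal with PDGF was 20279.6 with UO126 and 20147.3 with vehicle. At the other probe sets of these genes the UO126 effect was 0.09 (SE 0.088, Hspa8 B), −0.08 (SE 0.332, Hspa8 D) and 0.01 (SE 0.114, Dnaja1 B). The probe sets of Hspa8 and of Dnaja1 thus differed. The 1 with SU6656 was probe set A of Hsp90aa1 (−0.38, SE 0.0857, adjusted p = 0.314), while probe sets B and C of that gene gave −0.07 (SE 0.088) and 0.03 (SE 0.101). Of the 9 in the other table limma called 0 for MEK inhibition under PDGF (1 at an unadjusted p under 0.05, Dnajb1), without PDGF (1, Hspd1) and for the interaction (2, both of these genes). Over all probe sets it called 0%, 0.0115% and 0%, and 7.19%, 7.21% and 4.91% had an unadjusted p under 0.05.

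**Figure D5:**
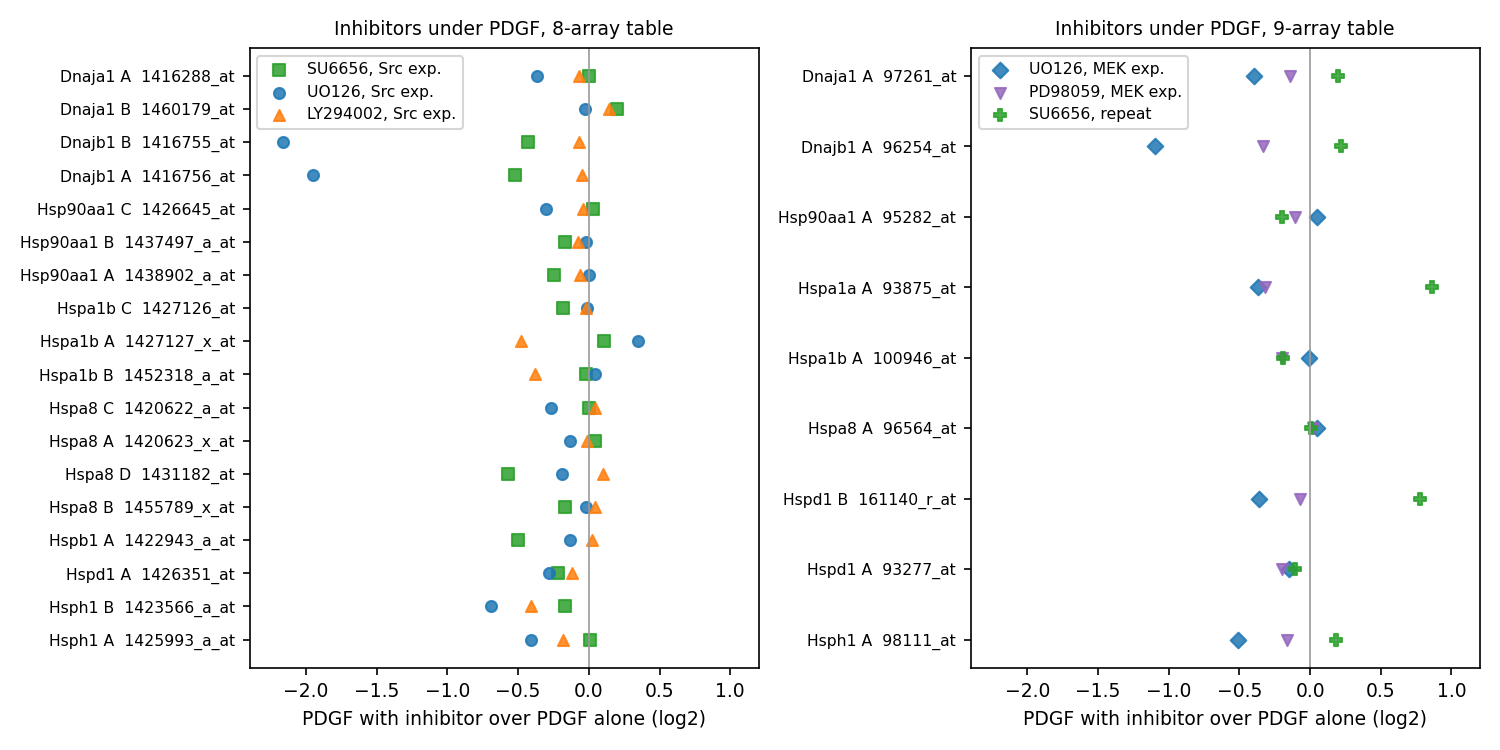
Log2 ratio of PDGF with inhibitor over PDGF alone (horizontal axis), 1 array over 1 array within an experiment, for each member probe set above the filter in the 8-array (left) and 9-array (right) table; each symbol is an inhibitor and experiment. Dnajb1 with UO126 lies furthest to the left in both panels (−2.16 and −1.95, and −1.10).

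The other chaperone genes were taken as 7 lists of 78 genes, with 69 and 59 tested in the 8-array and 9-array tables at the brightest probe set. With PDGF 2 of the 69 rose and 0 fell, a share near the 2.5% of all probe sets called up in that table, and 0 of the 59 passed. List medians were −0.12 to 0.18 and −0.14 to 0.06, against −0.05 over 9221 genes and −0.04 over 6364. The 2 were Dnajb4, a J-domain cochaperone related to Dnajb1 (1.80, SE 0.0877, limma adjusted p = 6.15e-06), and Hspa5, the HSP70 of the endoplasmic reticulum (0.41, SE 0.0745, adjusted p = 0.0166). For Dnajb4 PDGF gave a 3.65-fold rise with vehicle, 2.91-fold with SU6656, 3.57-fold with UO126 and 3.89-fold with LY294002, so its response with UO126 was near that with vehicle. Its effect in the 9-array table was 1.06 (SE 0.243, limma adjusted p = 0.0669), with log2 responses of 1.89 untreated, 0.57 with UO126 and 0.24 with PD98059. Those inhibitor pairs began higher, at 551.7 and 501.8 signal units without PDGF against 194.3 untreated. Of the HSP70 family and its partners 1 of 21 tested genes passed in the 8-array table, of the endoplasmic reticulum chaperones 1 of 12, and the HSP90 machinery (12), the TRiC chaperonin and prefoldin (12), small heat shock proteins (3), mitochondrial chaperones (6) and heat shock factors with HSF1 regulators (3) had 0 calls. With any inhibitor 0 of these genes passed.

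The genes whose centred log2 values lay nearest to those of Dnajb1 over the 8 arrays of the Src experiment, among 9220 others, were Maff, a small MAF transcription factor (root mean squared difference 0.20), Ier5, an early response gene (0.36), Nppb, which encodes a natriuretic peptide (0.39), Myc (0.462) and Tnfrsf12a, the TWEAK receptor (0.499). The log2 PDGF response of Maff was 2.75 with vehicle, 2.38 with SU6656, 1.00 with UO126 and 2.51 with LY294002, against 2.60, 1.98, 0.78 and 2.21 for Dnajb1. Nppb and Tnfrsf12a had 1.98 and 2.33 with UO126, so nearness by this measure does not mean the same order of inhibitors.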

How the data were processed

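Expression was measured on oligonucleotide arrays in 17 samples of NIH 3T3 cells. Each deposited value is a linear intensity of 1 probe set on 1 array. After trimming 2% at each end, array means were 500.2 to 500.4, as arrays scaled to 1 target have, and the software is not given in the sources used here. Genes were named from the platform annotation, with symbols updated through Entrez IDs against RefSeq (GRCm38.p6, also the source of promoters), and probe sets with 1 gene only were used (20393 of 22690 and 10855 of 12488, with 691 and 396 naming several and 1606 and 1237 unlisted).

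Control probe sets (64 and 66) were left out. Values were quantile normalised within each table and taken as log2 after adding a constant, the 20th percentile of all values in that table (36.3 and 21.2), which understates fold changes of dim probe sets. A filter on the mean over all arrays dropped the lowest 30%, leaving 15838 and 8695 probe sets, with 18 of 20 and 9 of 11 of the members. limma 3.58.1 (R 4.3.3) gave the tests, by lmFit and by eBayes with a mean-variance trend, and was tested on simulated data. The 8-array fit had inhibitor and PDGF as terms, so pairs are a block taken from the design. The 9-array PDGF fit had pair and PDGF, and the MEK fit had experiment, PDGF, MEK inhibition, their interaction and SU6656, each with 3 residual degrees of freedom. The residual holds differences in response between pairs and is no spread of replicates. The tables were never tested together. Alternatives were scaling, pseudocount, filter, variance trend, pair block and leaving out each array. The named genes are all members, listed chaperone genes past the threshold (up to 4 per list) and the 5 genes nearest to Dnajb1. Members and lists were chosen with earlier results of these data known.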

Additional observations from a re-analysis of the deposited data

How the results depend on the processing

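Over 4 pairs, the count of member probe sets called with PDGF in the 8-array table was 6 and was 1 without the variance trend; that of the 9-array table was 2 and was 0 without the filter, without the variance trend and without the pair block. Leaving out 1 array gave 4 to 5 and 0 to 2. Over all probe sets the 8-array count of 525 became 184 without the trend and 244 without the pair block (262 to 387 without 1 array), and the 9-array count of 147 became 65 and 60. With a common median the 8-array split was 578 up and 65 down in place of 396 and 129, with 8 members up in place of 6. For LY294002 that split was 27 and 27 in place of 32 and 49. Inhibitor counts over all probe sets were 11 for SU6656, 0 for UO126 and 45 for LY294002 without the filter and 0 for each without the trend, in place of 17, 7 and 81 (0 to 19, 0 to 8 and 4 to 105 without 1 array); of the members 0 to 2 passed with UO126 without 1 array. MEK inhibition under PDGF gave 1, 3 and 1 probe sets with the deposited scaling, a common median and a pseudocount of 1 in place of 0 (0 to 2 without 1 array), that without PDGF 0 without the filter and 0 without the trend in place of 1 (0 to 2), and the interaction 0 to 1. Effects near 0 changed sign: with the deposited scaling Hspb1 (−0.04) and Hspd1 (0.02) in the 8-array table, with a common median Hspa8 at probe set C (0.00), Hsph1 at probe set B (0.02) and Hspd1 (0.13), and without 1 array Hspb1 (−0.08 to 0.12), Hsph1 (−0.08 to 0.01), Hspd1 (−0.08 to 0.01) and Hsph1 in the 9-array table (−0.15 to 0.02). The cause was not tested. Mean responses over basal moved by less than their SD with the deposited scaling, a pseudocount of 1 and the mean over probe sets, though that of Hspd1 turned from −0.15 to 0.10 with the last. Dim probe sets, such as those of Hspa1a and Hspb1, limit what can be said of those genes.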
